A study of Mus musculus with 72 samples.

Results

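Adipocytes were followed through 8 marker genes in the 36 heart libraries of Gnb5 knock-out, heterozygous and wild-type mice. Gnb5 is the gene of a G-protein β subunit that acts with the RGS proteins to end signalling from inhibitory G-protein coupled receptors. The 8 genes, Adipoq, Plin1, Fabp4, Cfd, Lep, Cidec, Cidea and Ucp1, were named as adipocyte markers, and their rows were taken from the 53715 gene identifiers of the count files. All 8 were found in every file. The question was how much fat accompanied the dissected atria and ventricles, and whether that amount varied with genotype.

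The atria (left and right, whole) and the ventricles (left and right, whole) were taken from each of 18 male animals aged 18 weeks: 6 knock-outs (Gnb5-/-), 6 heterozygotes (Gnb5+/-) and 6 wild types (Gnb5+/+). Exon 3 of Gnb5 was deleted in the germline on a C57BL/6J background, so the deletion of a Gnb5-/- mouse was not limited to the heart. The mice had normal chow, heterozygous breeding couples had a richer breeding diet, and litters with Gnb5-/- pups also had softened food around weaning. Each tissue and genotype therefore gave 6 libraries, 1 per mouse, and the sample labels give the number of each mouse. The Gnb5+/+ mice were numbers 7, 8 and 15 to 18, and the Gnb5-/- and Gnb5+/- mice had numbers from 1 to 14. What the numbers stand for is not given, so genotype and any order behind them cannot be fully told apart. The 36 brain libraries of the series came from Gnb5-/- and Gnb5+/+ mice and enter here only as a tissue without fat. No library of adipose tissue was analysed here, so a signal of fat could not be turned into a percentage of tissue mass. In such bulk RNA, fewer adipocytes and less RNA per adipocyte cannot be told apart.

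White adipocytes hold a single large lipid droplet. It is coated by perilipin 1 (Plin1), which gates lipolysis, and by the fat-specific protein Cidec, which fuses small droplets into a large one. The same cells secrete adiponectin (Adipoq), leptin (Lep) and adipsin (Cfd, complement factor D). Brown adipocytes burn lipid for heat through the mitochondrial uncoupling protein Ucp1, and Cidea is the droplet fusion protein most abundant in them. Fabp4, the adipocyte fatty acid binding protein, is also made by capillary endothelium. In mice, fat lies at the base of the heart beside the atria and the great vessels and is sparse over the ventricles.

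Adipoq (ENSMUSG00000022878) lies at chr16:23146536-23158028 on GRCm38, Plin1 (ENSMUSG00000030546) at chr7:79720218-79732903, Fabp4 (ENSMUSG00000062515) at chr3:10204088-10208576 and Cfd (ENSMUSG00000061780) at chr10:79890853-79892655. Lep (ENSMUSG00000059201) lies at chr6:29060220-29073877, Cidec (ENSMUSG00000030278) at chr6:113424634-113435760, Ucp1 (ENSMUSG00000031710) at chr8:83290352-83298452 and Cidea (ENSMUSG00000024526) on chromosome 18. Counts are of reads in the exons of each gene. Cidea overlaps an antisense gene, and the libraries were stranded.

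The depth of the heart libraries was 29355469 to 46118252 counts on genes. Gnb5 had a median of 25.1 CPM in Gnb5+/+ atria, 12.4 CPM in Gnb5+/- atria and 1.46 CPM in Gnb5-/- atria, with no overlap between these groups, and the ventricles gave the same order at 21.9, 10.9 and 1.11 CPM. CPM here is the count of a gene relative to the library total after TMM normalisation over the 36 heart libraries. The summed CPM of 4 atrial muscle genes (Myl7, Nppa, Sln and Myl4) was at least 15966 in each atrial library and at most 352 in each ventricular one. The 4 ventricular muscle genes (Myl2, Myh7, Irx4 and Myl3) summed to at least 9945 CPM in each ventricular library, and to between 34.5 and 988 CPM in the atrial libraries. Mitochondrial genes took 22.9% to 25.8% of counts in the median atrial library of a genotype and up to 40.8% in the median ventricular one. The 4 lung epithelium genes (Sftpc, Sftpa1, Sftpb and Scgb1a1) stayed at or under 0.0782 CPM in sum in the atria.

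Adipoq, Plin1 and Cidec, whose levels moved together across the atria, are shown with the sequence that precedes their annotated start, together with Lep, which parted from them in several libraries. The sequences are those of RefSeq on GRCm38.p6, read 5′ to 3′ on the strand of the gene, from 250 bases before the RefSeq start up to the first annotated exon of the gene in GENCODE M21. Capitals mark matches on either strand to TTGCNNAA, a form of the site of the C/EBP factors, and to the CCAAT box. The core of the sites of nuclear receptors such as PPARγ, AGGTCA, was searched too but had no match in these 4 stretches.
Adipoq, chr16:23146286-23146535, plus strand: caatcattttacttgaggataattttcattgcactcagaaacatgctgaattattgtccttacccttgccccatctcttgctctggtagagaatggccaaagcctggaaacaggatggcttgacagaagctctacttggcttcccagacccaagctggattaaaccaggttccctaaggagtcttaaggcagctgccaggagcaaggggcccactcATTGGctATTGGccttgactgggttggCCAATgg
Plin1, chr7:79732904-79733026, minus strand: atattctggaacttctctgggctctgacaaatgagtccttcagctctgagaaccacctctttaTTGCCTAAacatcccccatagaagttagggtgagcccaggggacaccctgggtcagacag
Cidec, chr6:113435761-113436010, minus strand: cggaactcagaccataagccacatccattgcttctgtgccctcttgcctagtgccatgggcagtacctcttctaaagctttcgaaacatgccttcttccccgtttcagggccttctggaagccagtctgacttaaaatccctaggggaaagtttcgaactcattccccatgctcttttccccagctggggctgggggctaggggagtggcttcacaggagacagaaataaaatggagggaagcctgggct
Lep, chr6:29059971-29060219, plus strand: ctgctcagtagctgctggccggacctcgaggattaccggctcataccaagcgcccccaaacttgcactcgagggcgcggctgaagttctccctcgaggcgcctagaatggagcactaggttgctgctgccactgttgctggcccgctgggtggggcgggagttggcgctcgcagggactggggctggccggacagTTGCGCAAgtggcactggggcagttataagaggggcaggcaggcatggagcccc

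The stretch before Adipoq held 3 CCAAT boxes, all close to the start of the gene, and 33.8% of the 32851 promoters of the table held at least 1 in the same 250 bases. TTGCNNAA was found once in the stretch of Lep and once in the 123 bases printed for Plin1, whose full 250 bases held 2. In 250 bases, 9.56% of all promoters held it at least once. The share for AGGTCA was 14.02%. The 250 bases before Cidec held none of the 3 motifs. Of the members not printed, Ucp1 held 1 AGGTCA and Cfd none of the 3. Fabp4 and Cidea had no entry. A match is a run of letters and says nothing of binding, and Adipoq, Plin1 and Cidec shared none of the 3 motifs in these stretches.

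Adiponectin mRNA was counted in every heart library and ranged over 55.0 times in CPM across the atria. In Gnb5+/+ atria it had 26, 86 and 190 counts (lowest, median and highest mouse), in Gnb5+/- atria 173, 195.5 and 814, and in Gnb5-/- atria 40, 256 and 1297. In the ventricles it had 5, 17.5 and 51 counts in the wild types, 5, 9 and 12 in the heterozygotes and 1, 17 and 40 in the knock-outs. The atria of 17 of 18 mice were above the ventricles of the same mouse, and the exception was Gnb5+/+ mouse 17, with 26 counts in the atria and 51 in the ventricles. The atrial and ventricular ranges overlapped. In the 36 brain libraries Adipoq had at most 6 counts.

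The genes of other droplet proteins and secreted products, Plin1, Cidec, Cfd and Lep, were also higher in the atria of most mice. Plin1 counts were 21 to 755 in the atria (median 159) and 4 to 47 in the ventricles, and Cidec counts were 38 to 1338 and 1 to 57. Cfd, the most abundant of these secreted products by count, ran from 49 to 7516 in the atria and from 16 to 208 in the ventricles. Lep, which encodes the satiety hormone, was the scarcest of the 5, with 0 to 1731 counts in the atria and at most 10 in the ventricles. Of 18 mice, Plin1, Cfd and Lep were higher in the atria of 16 and Cidec in those of 17.

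Fabp4 and Cidea, although chosen as adipocyte markers, behaved otherwise. Fabp4 had 4245 to 8204 counts in the atria and 7450 to 14349 in the ventricles. Cidea had 184 to 765 counts in the atria and 487 to 927 in the ventricles. In CPM, both were lower in the atria of 18 of 18 mice with no overlap between the tissues. Such separation was seen for 17.1% of the 16507 genes tested.

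Ucp1, the marker of brown fat, had a count of exactly 0 in 20 of the 36 heart libraries. A count of 0 still allows for an expected count of up to 3 in that library. Only 5 atrial libraries held more than 10 counts: Gnb5-/- mice 1, 3 and 12 with 340, 180 and 13, Gnb5+/- mouse 11 with 98 and Gnb5+/+ mouse 16 with 23. In the ventricles its highest count was 15, in Gnb5+/+ mouse 7, and it was 0 in all 6 Gnb5+/- mice.

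**Figure D1:**
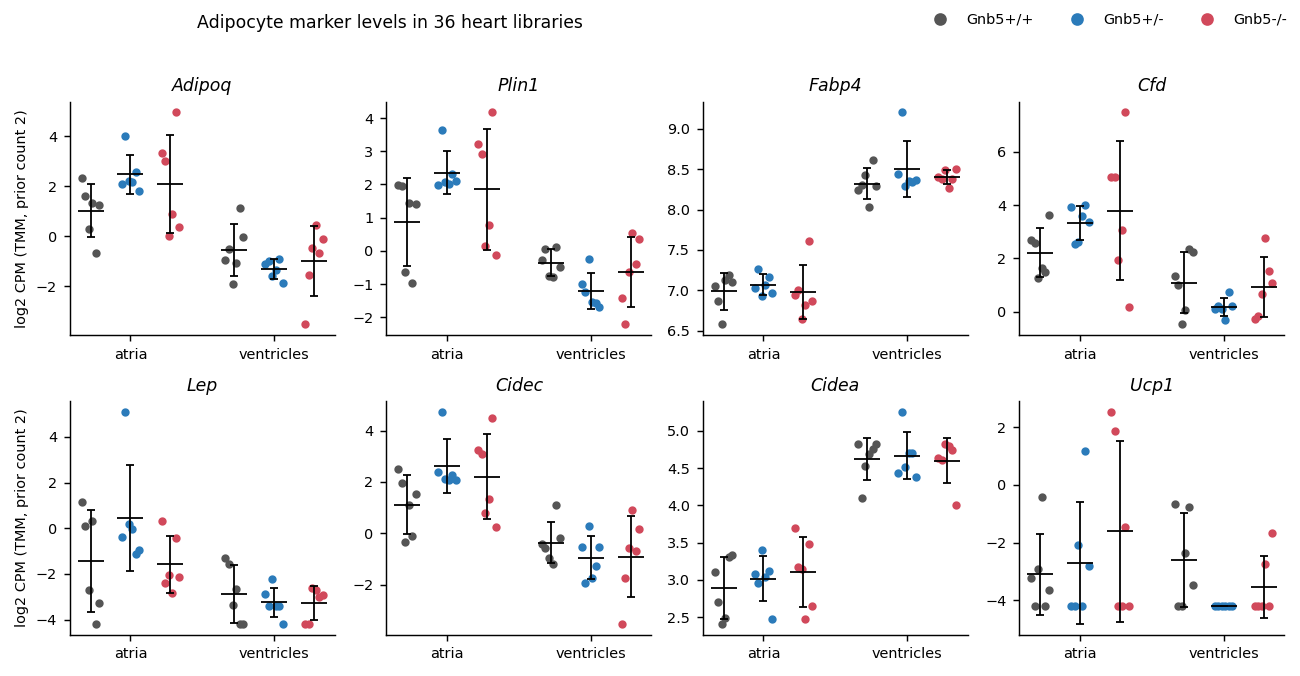
Levels of the 8 members in each of the 36 heart libraries, as log2 CPM with a prior count of 2, by tissue and genotype; each point is a mouse, and bars give the mean and SD of 6 mice. Adipoq, Plin1, Cfd, Lep and Cidec spread widely in the atria and lie lower in the ventricles, whereas Fabp4 and Cidea are tight and higher in the ventricles.

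Measured per length, the median level in the atria was 28.8 CPM per kilobase of annotated exon for Fabp4, 8.04 for Cfd, 7.62 for Cidea, 2.78 for Adipoq, 2.24 for Cidec, 0.845 for Plin1, 0.172 for Lep and 0.0236 for Ucp1. In the ventricles Fabp4 (73.8) and Cidea (23.2) stood first on this scale, Cfd followed at 1.42, and the others were at or under 0.337. Annotated exons of Fabp4 cover its whole gene of 4489 bases.

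The spread between mice set the members apart as clearly as their level did. On the log2 scale the SD over the 18 atria was 1.43 for Adipoq, 1.42 for Plin1, 1.38 for Cidec, 1.68 for Cfd, 2.10 for Lep and 2.28 for Ucp1, against a median of 0.22 over all genes tested. Fewer than 1% of genes varied more than any of these 6. Fabp4, with an SD of 0.23, and Cidea, with 0.39, stood among the bulk of the genes, since 46.8% and 24.9% of genes had a larger SD.

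Atria were compared with ventricles by edgeR with the mouse as a block, since both tissues came from each animal. Adipoq was higher in the atria by 2.81 on the log2 scale (SE 0.43, adjusted p = 1.93e-06) in the paired fit. Its mean was 5.87 CPM in the atria and 0.590 CPM in the ventricles. Lep (3.51, SE 0.46), Cidec (2.64, SE 0.42), Plin1 (2.49, SE 0.38) and Cfd (2.36, SE 0.41) were higher as well, with edgeR adjusted p of 2.32e-07, 3.63e-06, 2.34e-06 and 1.43e-05. Fabp4 was lower by 1.39 (log2 fold change -1.39, SE 0.07, adjusted p = 6.71e-16) and Cidea by 1.63 (-1.63, SE 0.09, adjusted p = 5.07e-15). Ucp1 did not pass the test (1.86, SE 0.98, adjusted p = 0.0944), although it did when the mouse was left out of the model (2.62, adjusted p = 0.0135) or when no filter on low counts was used (1.88, adjusted p = 0.0147). Ucp1 also passed in 3 of 18 refits that left out a mouse (Gnb5+/+ mouse 7 or 17, or Gnb5-/- mouse 14), and its value ran from 1.11 to 2.54 over these refits.

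So 5 of the 8 members were higher and 2 lower, where 37.6% of all 16507 genes tested were higher and 36.3% lower, 73.9% in all. Atria and ventricles differed in most genes, so that the number of members called says little by itself. The median over the 8 members, 6 above 0 and 2 below, was 2.42 and that over all genes, which TMM keeps near 0, was 0.02. The direction of the 7 called members was kept in each of the 18 refits that left out a mouse, with Adipoq between 2.59 and 3.12. It was also kept within each genotype for the 6 of them that could be tested there, and Lep could be tested only in Gnb5+/- mice. The size varied: Adipoq differed by 1.63 among Gnb5+/+, 4.04 among Gnb5+/- and 3.04 among Gnb5-/- mice, and Fabp4 by -1.32, -1.40 and -1.41.

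**Figure D2:**
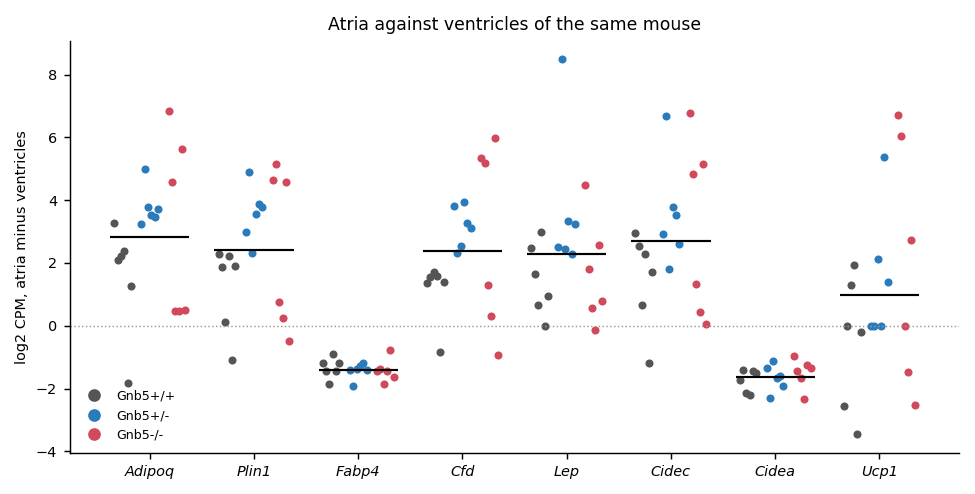
Difference in log2 CPM (prior count 2) between atria and ventricles of the same mouse for each member; each point is 1 of 18 mice and the bar is their mean. The points of Fabp4 and Cidea all lie under 0, and those of Adipoq lie over 0 in 17 of 18 mice.

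Further adipocyte genes were also divided between the tissues. Of 22 listed, 12 were higher in the atria and 9 lower. Those of largest difference were resistin (Retn, 2.72), the β3-adrenergic receptor (Adrb3, 2.70), carbonic anhydrase 3 (Car3, 2.64), stearoyl-CoA desaturase (Scd1, 2.62) and the activin receptor Acvr1c (2.48), all of them higher. The 9 that were lower in the atria ranged from -1.97 for the glycerol channel Aqp7 to -0.38 for the lipase Lipe. Aqp7 and Lipe were named after their values were seen. Of 9 tested genes from a list of 13 linked to brown fat, 2 were higher and 6 lower, among them Prdm16 (-2.59), Otop1 (1.81), Cox8b (-1.42), Cox7a1 (-1.28) and the glycerol kinase gene Gk (-1.16). Cox8b and Cox7a1 are also genes of oxidative muscle.

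Relatives of the members were measured too. Of 7 lipid droplet genes, 4 were lower in the atria and none higher: Plin5 (-3.04), which ties droplets to mitochondria in oxidative muscle, Plin3 (-1.83), Plin2 (-1.29) and the lipolysis inhibitor G0s2 (-0.59). Of 4 tested relatives of Fabp4, the heart type Fabp3 was lower (-2.12), and Fabp1 (2.52), Fabp7 (1.30) and Fabp5 (0.85) were higher. Fabp4 and Fabp3 were thus both lower in the atria, and Adipoq was higher.

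Markers of other cell types moved between the tissues as well. All 6 genes of mesothelium and epicardium, the sheet that covers the heart, were higher in the atria, led by Upk3b (3.69), and their sum was 197 to 502 CPM in the atria against 20.01 to 41.9 CPM in the ventricles. All 5 macrophage genes were higher, by 0.46 to 1.00, and 4 of 5 tested skeletal muscle genes, led by Actn3 (4.02). The 8 genes of capillary endothelium summed to 696 to 921 CPM in the atria and 843 to 1107 CPM in the ventricles. Of these 8, 5 were lower in the atria, led by Gpihbp1 (-1.22), Cldn5 (-1.09) and Kdr (-0.98), and 3 were higher, led by Emcn (0.50). The part of the endothelium in the difference of Fabp4 was not tested.

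The sum of 5 members (Adipoq, Plin1, Cfd, Lep and Cidec, grouped after their values were seen) was taken as the fat signal of each library. It weighs each gene by its counts, and Cfd gave 7516 of the 10530 counts in the atria of Gnb5-/- mouse 12. In the ventricles Lep did not follow Adipoq (r = 0.17, permutation p = 0.495). As CPM of the deposited counts without TMM factors, the sum was 5.44 to 314 in the atria, with a median of 25.6. In the ventricles it was 0.983 to 9.99, with a median of 2.38. By genotype the atrial medians were 16.1 for Gnb5+/+, 31.4 for Gnb5+/- and 46.6 for Gnb5-/- mice (19.6 without mouse 12, below that of Gnb5+/-), with ranges of 5.55 to 26.5, 24.7 to 118 and 5.44 to 314. The Gnb5-/- atria held both the lowest and the highest value of all 18.

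The make-up of this signal was steady for the droplet genes and not for the hormones. For every 100 Adipoq counts, the atrial libraries held 50 to 127 counts of Plin1 and 63.3 to 175 of Cidec. Cfd ran from 35.5 to 579 per 100 Adipoq counts and Lep from 0 to 213. The atria of Gnb5+/- mouse 4 had both the highest ratio of Lep to Adipoq, with 1731 counts of Lep, and the lowest ratio of Cfd to Adipoq of all 18. Gnb5-/- mouse 12 had the highest ratio of Cfd, 579 counts per 100 Adipoq counts, and 2.24 counts of Lep. Ucp1 reached 57.7, 44.4 and 38.1 per 100 Adipoq counts in Gnb5-/- mice 1 and 3 and Gnb5+/- mouse 11, and 0 in 8 of the 18 atria.

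**Figure D3:**
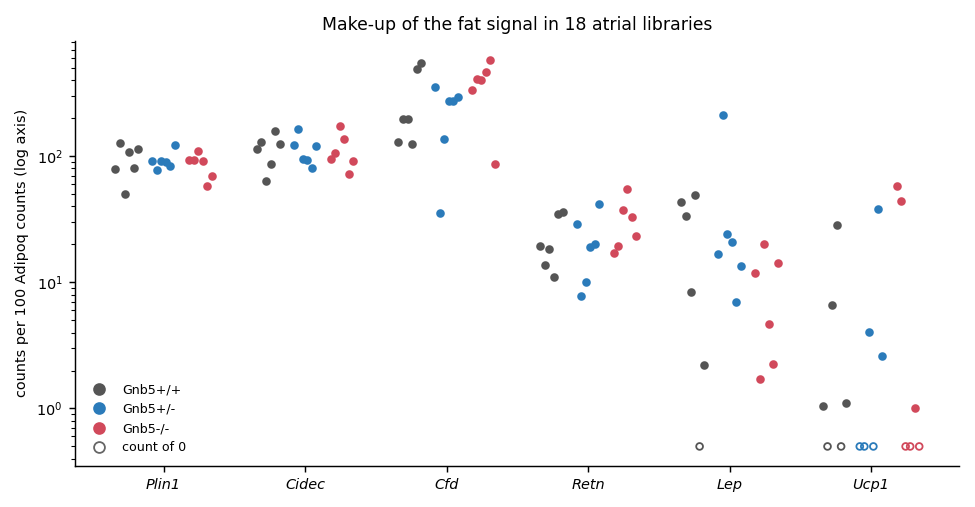
Counts of 5 members and of resistin (Retn) per 100 counts of Adipoq in the 18 atrial libraries, on a log axis, with open circles for a count of 0; each point is a mouse. Plin1 and Cidec keep close to Adipoq, while Cfd, Lep and Ucp1 scatter, with Gnb5+/- mouse 4 alone at the top for Lep (213) and at the bottom for Cfd (35.5).

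Some atrial libraries stood apart in other gene lists. In the atria of Gnb5+/- mouse 4, the 6 genes of thymus and T cells summed to 127 CPM, against 1.36 to 7.36 CPM in the other 17 atria, and all 6 were at their highest there. Rag1, which cuts antigen receptor genes in thymocytes, had 2489 counts in it and Dntt, an enzyme of the same cells, 1221, and they were at 0 in 12 and 10 of the 18 atria. In the atria of Gnb5-/- mouse 1 the 8 skeletal muscle genes summed to 32.3 CPM against 9.37 to 17.6 CPM elsewhere. In Gnb5+/- mouse 11, 5 of the 6 mesothelial genes were at their highest, with a sum of 502 CPM. In Gnb5-/- mouse 12, 15 of the 22 further adipocyte genes had their highest value and their sum was 2496 CPM, against 798 to 1423 CPM in the other atria. In that library the thymus list was at 2.56 CPM, skeletal muscle at 10.7 CPM and mesothelium at 339 CPM, within the range of the others. The part of these gene lists in the values of the members was not tested.

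Across the 18 atria, Plin1 and Cidec followed Adipoq closely. Pearson's r of log2 CPM was 0.97 for Plin1 (rho = 0.97) and 0.96 for Cidec (rho = 0.96), each with a permutation p of 1e-05, the smallest that 100000 permutations can give, and an adjusted p of 6.67e-05 over the 20 relations computed. Without the 2 libraries farthest from the median of Adipoq, r was still 0.96 and 0.95, and within each genotype it lay between 0.92 and 0.99. Cfd (r = 0.79, rho = 0.71) and Lep (r = 0.66, rho = 0.61) followed less closely, with permutation p of 0.0002 and 0.00296 and adjusted p of 0.0008 and 0.00846. In Gnb5+/- mice alone, r of Cfd with Adipoq was -0.52 (n = 6), a value that includes mouse 4. Fabp4 gave r = 0.64 (rho = 0.48, permutation p = 0.00433, adjusted p = 0.0108), although r was 0.02 within Gnb5+/+ mice, and Cidea r = 0.42 (rho = 0.41, permutation p = 0.0792). All values of a library share its depth and dissection.

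**Figure D4:**
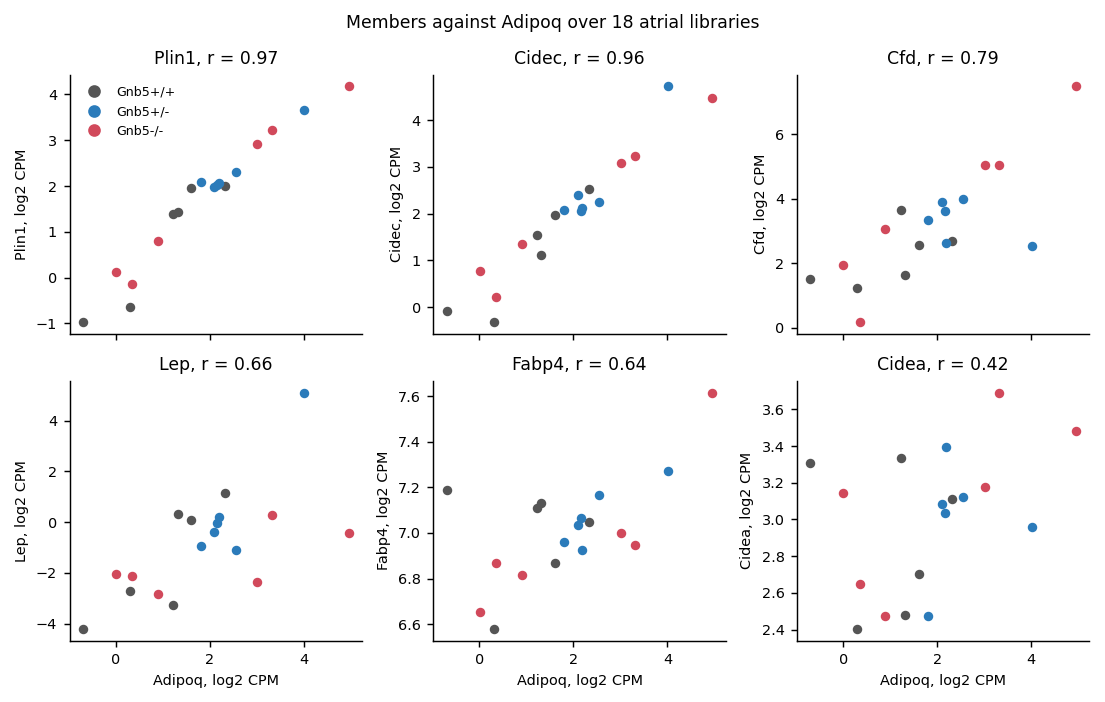
Plin1, Cidec, Cfd, Lep, Fabp4 and Cidea plotted against Adipoq over the 18 atrial libraries, both as log2 CPM (prior count 2), coloured by genotype, with Pearson's r above each panel. Plin1 and Cidec form a narrow line (r = 0.97 and 0.96), while Gnb5+/- mouse 4 lies above the rest for Lep and below them for Cfd.

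The genes most like Adipoq over the 18 atria, of 16180 ranked, were Car3 (r = 0.98), Lgals12 (0.97), Cdo1 (0.97), Tshr (0.96), Adrb3 (0.96), Ptger3 (0.94), Tmem45b (0.93), Car5b (0.91), Chdh (0.91) and Trarg1 (0.91), members left out. Plin1 and Cidec stood at ranks 4 and 5 of the same order, Cfd at rank 45, Lep at rank 131, Fabp4 at rank 162 and Cidea at rank 1032. Over the 18 ventricles the order was led by Car3 (r = 0.86), haptoglobin (Hp, 0.85), Igsf9 (0.76), Gm14399 (0.73) and Pck1 (0.71), and continued with Dennd3, Tinagl1, Dusp22, 2210407C18Rik and Srms at r of 0.67 to 0.71. There Cfd (r = 0.82, rank 3), Cidec (0.80, rank 4) and Plin1 (0.66, rank 15) stayed near Adipoq, and Fabp4 (0.09, rank 5158) and Cidea (0.09, rank 5207) did not.

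The level in the atria of a mouse did not follow that in its ventricles. Over the 18 mice, r between atria and ventricles was -0.48 for Adipoq (rho = -0.45, permutation p = 0.0467), -0.50 for Plin1 (rho = -0.58, p by permutation 0.0338) and -0.53 for Cidec (rho = -0.50, p by permutation 0.0249). After adjustment over the 20 relations, these permutation p were 0.0850, 0.0677 and 0.0554, so that none passed as r, and only the rho of Plin1 did (adjusted permutation p = 0.0382). Gnb5+/+ mouse 17 and Gnb5-/- mice 10 and 14 had the 3 highest ventricular counts of Adipoq (51, 40 and 33) and 26, 107 and 56 counts in the atria. Gnb5-/- mouse 1, second among the Gnb5-/- atria with 589 counts, had 1 count in its ventricles. The other members computed were not negative in this way. Their r was -0.03 for Cfd, 0.17 for Fabp4, 0.31 for Cidea and 0.33 for Lep (permutation p of 0.911, 0.442, 0.213 and 0.175). With genotype means removed, r was -0.40 for Adipoq, -0.39 for Plin1 and -0.48 for Cidec. Within genotypes that of Adipoq was -0.44 (Gnb5+/+), 0.63 (Gnb5+/-) and -0.51 (Gnb5-/-).

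The Gnb5-/- genotype was compared with Gnb5+/+ in the atria by edgeR, on all 18 atrial libraries. Cfd had a log2 fold change of 3.00 (SE 0.82), Adipoq of 1.90 (SE 0.71), Cidec of 1.52 (SE 0.69) and Plin1 of 1.48 (SE 0.66), with edgeR adjusted p of 0.224, 0.445, 0.585 and 0.562. None of the 7 members tested passed, while 0.253% of all 16181 genes did. Of the 7, 6 were above 0 with a median of 1.48, and 4 had an unadjusted p under 0.05, as did 8.15% of all genes. Lep had a value of -0.82 (SE 1.22), Cidea of 0.24 (SE 0.21) and Fabp4 of 0.02 (SE 0.14). Ucp1 was under the filter on low counts.

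Cfd averaged 43.1 ± 68.3 CPM (SD, n = 6) in Gnb5-/- and 5.48 ± 3.81 CPM in Gnb5+/+ atria, and Adipoq 8.81 ± 11.5 and 2.40 ± 1.53 CPM. The SD of the Gnb5-/- mice exceeded their mean for both genes. Of their 6 atria, those of mice 1, 3 and 12 had 405 to 1297 counts of Adipoq and those of mice 5, 10 and 14 had 40 to 107, within the Gnb5+/+ range of 26 to 190. DESeq2 called Cfd in this comparison (2.99, SE 0.81, adjusted p = 0.0418), the only member it called in any comparison of genotypes, and it called 0.62% of all genes in this one. Without mouse 12 the edgeR values were 1.55 for Cfd (SE 0.62), 0.89 for Adipoq (SE 0.61), 0.84 for Plin1 and 0.81 for Cidec. By two-sided exact permutation tests of log2 CPM, over all divisions of the 12 mice, the 8 members gave p between 0.195 for Cfd and 0.989 for Fabp4, and 7.08% of all genes had p under 0.05.

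The Gnb5+/- atria were mostly above the Gnb5+/+ ones in Adipoq. Of the 6 Gnb5+/- atria, 5 had 173 to 257 counts of Adipoq and the other, mouse 4, had 814. Of the 6 Gnb5+/+ atria, 5 had 26 to 124 and mouse 7 had 190. In CPM, which allows for depth and TMM factors, Gnb5+/+ mouse 7 exceeded Gnb5+/- mice 2, 6, 9 and 13. Gnb5+/+ mice 15 to 18, numbered above all mutant mice, had 26 to 91 counts, and mouse 8 had 124. The part of mouse number in this difference was not tested. edgeR gave log2 fold changes of 3.12 for Lep (SE 1.15), 1.63 for Cidec (SE 0.69), 1.44 for Adipoq (SE 0.71), 1.29 for Plin1 (SE 0.66) and 0.99 for Cfd (SE 0.79), with adjusted p of 0.636, 0.655, 0.695, 0.713 and 0.834. None of 7 members passed, 2 had an unadjusted p under 0.05 (7.22% of all genes did), and 0.0124% of the genes tested passed. Fabp4 (0.08) and Cidea (0.10) lay near 0.

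Exact permutation tests, 1 gene at a time and unadjusted, gave p = 0.013 for Adipoq, 0.00433 for Plin1, 0.0303 for Cidec and 0.0455 for Cfd in Gnb5+/- against Gnb5+/+ atria. These were 4 of the 8 members, where 5.93% of all genes had an exact p under 0.05 and the smallest p the design allows is 0.00216. All 6 Gnb5+/- mice lay above the Gnb5+/+ mean of log2 CPM for each of the 4 genes. The log2 means differed by 1.46 for Adipoq, 1.49 for Cidec and 1.12 for Cfd, and the groups overlapped for each. Levels of Plin1 and Cidec followed that of Adipoq from library to library, so the 4 are not separate results.

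Lep in this comparison rested on 1 mouse. Its atrial counts were 18, 26, 29, 40, 48 and 1731 in Gnb5+/- mice and 0, 2, 5, 40, 42 and 83 in Gnb5+/+ mice. Without mouse 4, whose library held the thymus genes, the log2 fold change of Lep was -0.05 (SE 0.83), and that of Adipoq 0.92, Plin1 0.88, Cidec 0.76 and Cfd 1.13.

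Gnb5-/- and Gnb5+/- atria overlapped in Adipoq, and edgeR gave 0.46 (SE 0.67), with 0.19 for Plin1 and -0.11 for Cidec. Lep was at -3.93 (adjusted p = 0.67; exact permutation p = 0.0455) and Cfd at 2.01 (SE 0.78, adjusted p = 0.948; exact permutation p = 0.682). None of 7 members passed, 2 had an unadjusted p under 0.05 (4.86% of all genes did), and 0.0494% of genes passed. By the exact test, Lep was the 1 member under 0.05, where 5.78% of genes were. Without mouse 4 of the Gnb5+/- group Lep was at -0.79.

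**Figure D5:**
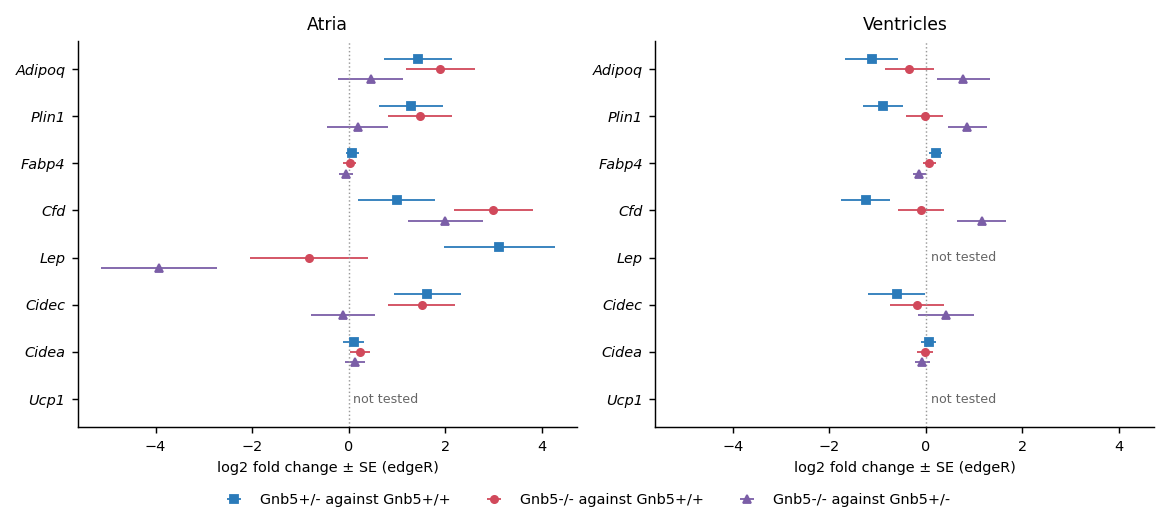
Log2 fold changes of the members between genotypes, with their SE from edgeR, in atria (left) and ventricles (right); members under the filter on low counts are marked as not tested. In the atria Adipoq, Plin1, Cfd and Cidec lie above 0 in both mutant genotypes against Gnb5+/+, and in the ventricles no value against Gnb5+/+ is above 0.21.

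In the ventricles the values of the Gnb5-/- mice lay close to those of Gnb5+/+. Adipoq was at -0.34 (SE 0.51), Cidec at -0.18 (SE 0.56), Cfd at -0.09 (SE 0.48), Plin1 at -0.03 (SE 0.38), Cidea at -0.02 (SE 0.16) and Fabp4 at 0.07 (SE 0.13). None of the 6 members tested passed, none had an unadjusted p under 0.05 (4.78% of all genes did), and 0.188% of the 14866 genes passed. No member had an exact permutation p under 0.05, against 5.54% of genes.

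The 5 members summed to 40 to 87 counts in Gnb5+/- ventricles, 46 to 247 in Gnb5+/+ and 36 to 351 in Gnb5-/- ventricles, so that the groups overlapped. Cfd was at -1.25 (SE 0.51), Adipoq at -1.12 (SE 0.55), Plin1 at -0.89 (SE 0.41) and Cidec at -0.61 (SE 0.58), with edgeR adjusted p of 0.961, 0.961, 0.961 and 0.977. None of 6 members passed, 2 had an unadjusted p under 0.05 (4.84% of all genes did), and 0.0202% of genes passed. Fabp4 was highest in Gnb5+/- mouse 4 (590 CPM), a library with 2.85% of reads outside genes against at least 4.41% in the Gnb5+/+ ventricles. Without it the log2 fold change of Fabp4 was 0.03 in place of 0.21. Plin1 had an exact permutation p of 0.0173, the 1 member of 8 under 0.05, where 4.35% of genes were. Against Gnb5+/- ventricles, the Gnb5-/- ventricles gave 1.15 for Cfd (SE 0.51) and 0.86 for Plin1 (SE 0.41), with adjusted p of 0.514 and 0.561. None of 6 passed, 2 had an unadjusted p under 0.05 (8.79% of all genes did), 0.0874% of genes passed, and no member had an exact permutation p under 0.05, against 11.3% of genes.

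The Gnb5+/- values against Gnb5+/+ were thus positive in the atria and negative in the ventricles for Adipoq, Plin1, Cfd and Cidec. The difference between the tissues was tested as an interaction with the mouse as a block. It was 2.45 for Adipoq (SE 1.03, adjusted p = 0.908), 2.26 for Plin1 (SE 0.91), 2.14 for Cfd (SE 0.92), 1.95 for Cidec (SE 1.03) and 3.36 for Lep (SE 1.11), each with the same adjusted p. For the Gnb5-/- genotype the interaction was 1.36 for Adipoq (SE 0.99, adjusted p = 1) and 1.83 for Cfd (SE 0.94). No member passed in either, and neither did any other gene by edgeR (0% of 16507), although 865 and 640 genes had an unadjusted p under 0.05. Without a filter on low counts, edgeR called 6 members for the Gnb5+/- interaction and 4 for the Gnb5-/- one, where it called 0.282% and 0.308% of 31506 genes.

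The 22 further adipocyte genes in the atria leaned the same way as the members. Genes of this list such as Car3 (r = 0.98) and Adrb3 (0.96) followed Adipoq over the same 18 atria. The list and the members are therefore not separate results. Against Gnb5+/+, 18 of 22 were above 0 in Gnb5-/- mice, with a median log2 fold change of 0.75, and 12 had an unadjusted p under 0.05 (8.15% of all genes did) without any adjusted p under 0.05. The largest were Retn (2.40, SE 0.70, adjusted p = 0.282), Adrb3 (2.25), Pck1 (2.23), Lgals12 (2.01) and Car3 (1.94), named after their values were seen. In Gnb5+/- mice 19 of 22 were above 0, with a median of 0.50. Both comparisons share the 6 Gnb5+/+ mice, among them mice 15 to 18, numbered above all mutant mice. Without Gnb5-/- mouse 12, 18 of 22 were above 0 in Gnb5-/- mice, the median was 0.38 and 6 had an unadjusted p under 0.05. Without Gnb5+/- mouse 4, 20 of 22 were above 0 in Gnb5+/- mice with a median of 0.42. The median over all genes tested was 0.00 in both comparisons. The 4 ventricular muscle genes were below 0 in both, with medians of -1.25 in Gnb5-/- and -1.12 in Gnb5+/- atria, and the 3 thymus and T cell genes tested were above 0 in both, with medians of 0.80 and 2.63, the latter with Gnb5+/- mouse 4 included. The summed thymus list was 2.05 to 3.98 CPM in Gnb5-/- atria and 1.36 to 2.003 CPM in Gnb5+/+ atria. Of 5 macrophage genes, 4 were above 0 in Gnb5-/- and 5 in Gnb5+/- atria. The part of these genes in the values of the adipocyte genes was not tested. In the ventricles 9 of 18 tested were above 0 in Gnb5-/- and 3 of 18 in Gnb5+/- mice, with medians of -0.02 and -0.08.

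The listed brown fat genes, which leave out Ucp1, showed no such lean. In both Gnb5-/- and Gnb5+/- atria 3 of 9 tested were above 0 against Gnb5+/+, with none called by edgeR and 1 at an unadjusted p under 0.05 in each. The sum of the 13 genes, which include genes of heart muscle, was 284 to 435 CPM in the atria, and Gnb5-/- mouse 1, with the most Ucp1, had the lowest. Elovl3, a lipid elongase induced with Ucp1, had a count of 0 in 11 of the 18 atria and at most 10. Ucp1 itself was under the filter on low counts in both fits. Refits without 1 mouse that could test it gave edgeR p of 0.0162 to 0.0512 for Gnb5-/- against Gnb5+/+ atria, with adjusted p of 0.421 to 0.673.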

How the data were processed

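Total RNA of atria and ventricles was sequenced as stranded libraries. The authors trimmed reads with cutadapt 1.8, filtered out those of ribosomal or low-complexity sequence, aligned with STAR 2.5.3a to GRCm38 and counted reads per gene with HTSeq 0.9.1, and the deposited values are these raw counts. Reads assigned to no gene (2.85% to 6.74% outside genes in heart) stayed out of library sizes and tests.

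Counts were normalised by TMM and tested with edgeR 4.0.16 (quasi-likelihood test, R 4.3.3) after a filter at a count minimum of 10, with Benjamini-Hochberg adjustment over all genes tested and a threshold of 0.05. Genotypes were compared within each tissue over its 18 libraries. Atria and ventricles, and the interactions, were paired by animal as a block, from the mouse numbers in the sample titles. Replicates are separate mice. Single members were also tested by 48 unadjusted two-sided exact permutation tests of log2 CPM (prior count 2), and correlations by 100000 permutations.

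All 8 members were reported. Of each gene list, up to 5 genes of largest change past the threshold were named, and the 10 genes most like Adipoq in each tissue. Members, lists and tests were chosen with earlier results of these data known, and the sum of 5 members, the motifs and the stretches shown after their values were seen. The model was tested on simulated data. DESeq2 1.42.0, other factors, filters, blocks and subsets were tried as alternatives, and leaving out each mouse was added after seeing the data. No library of adipose tissue was used here.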

Additional observations from a re-analysis of the deposited data

Results flagged for a closer look

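In 9 of 48 groups of 6 libraries, 1 library stood far from the others by Dixon's criterion (0.625 of the range), which chance alone meets in about 1 in 20 groups. In the atria of Gnb5+/- mouse 4 these were the highest counts of Adipoq (814), Plin1 (636), Lep (1731) and Cidec (1338), in a library that also held the thymus genes at 127 CPM. In the ventricles of the same mouse they were the highest counts of Fabp4 (14349) and Cidea (927). The atria of Gnb5-/- mouse 12 had the highest Fabp4 of their group (8204), the ventricles of Gnb5-/- mouse 14 the lowest Cidea in CPM (16.01 CPM, from 618 counts), and the atria of Gnb5+/+ mouse 16 the highest Ucp1 (23). Different members share the same libraries, so the 48 groups are not independent trials of the rate of 1 in 20.

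The brain libraries, outside the comparisons above, held Cidea in all 36 libraries and Ucp1 in the cerebellum at over 20 counts each. Cidea had a median of 209 counts in the cerebellum, 224 in the hippocampus and 60 in the cortex, over 12 libraries each, and Ucp1 a median of 48 in the cerebellum. Adipoq, Plin1, Cfd, Lep and Cidec had at most 19 counts in any brain library, and Fabp4 at most 80, with a median of 2.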

How the results depend on the processing

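The 7 members called between atria and ventricles kept their calls without any single mouse, and Ucp1 gained one in 3 of 18 such refits (1.11 to 2.54), but 3 were called, of 3 tested, when every library had to hold 10 counts. DESeq2 called 1 member between Gnb5-/- and Gnb5+/+ atria where edgeR called 0. Without a filter, 4 members were called for the interaction of the Gnb5-/- genotype and 6 for that of the Gnb5+/- genotype, where the filtered fits called 0 (97 and 89 of 31506 genes without a filter). The cause was not tested.

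Replicate numbers did not pair mice of different genotypes (correlations of deviations from -0.21 to 0.15, at most 1 of 6 pairs over 0.1). With the replicate block 0 members were called in all 6 comparisons, and Gnb5-/- against Gnb5+/- atria turned to -0.31 for Adipoq and -0.41 for Plin1.

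Leaving out 1 mouse called no member between genotypes, but turned some directions. The ranges for Gnb5-/- against Gnb5+/+ atria were -0.14 to 0.0876 for Fabp4, and for Gnb5+/- against Gnb5+/+ atria -0.0489 to 3.82 for Lep. For Gnb5-/- against Gnb5+/- atria they were -0.55 to 0.98 (Adipoq), -0.45 to 0.60 (Plin1), -0.21 to 0.0103 (Fabp4), -0.82 to 0.76 (Cidec) and -0.0018 to 0.24 (Cidea). In the ventricles, Gnb5-/- against Gnb5+/+ ran from -0.69 to 0.21 (Adipoq), -0.30 to 0.17 (Plin1), -0.70 to 0.19 (Cfd), -0.69 to 0.30 (Cidec) and -0.10 to 0.0856 (Cidea), Gnb5+/- against Gnb5+/+ from -0.0842 to 0.11 (Cidea), and Gnb5-/- against Gnb5+/- from -0.18 to 0.0434 (Fabp4), -0.0786 to 0.80 (Cidec) and -0.13 to 0.0666 (Cidea).

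Over all genes, Gnb5-/- against Gnb5+/+ gave 41 calls in atria and 28 in ventricles with edgeR, and 113 and 62 with DESeq2, or 20 in atria from these 2 genotypes alone. Gnb5+/- against Gnb5+/+ atria gave 2 and, with DESeq2, 8, and its ventricles 3, with 1 from the 2 genotypes alone and 0 under the replicate block. Gnb5-/- against Gnb5+/- gave 8 in atria (25 with DESeq2, 13 from the 2 genotypes) and 13 in ventricles (69 with DESeq2). Atria against ventricles gave 12200, and 7982 in Gnb5+/+ mice alone. Leaving out 1 mouse moved Gnb5-/- against Gnb5+/+ atria to 24 (without Gnb5-/- mouse 1), 25 (without Gnb5+/+ mouse 7 or 17), 27 (without Gnb5+/+ mouse 16 or 18) or 62 (without Gnb5+/+ mouse 15), and the ventricles to 17 (without Gnb5+/+ mouse 7). Gnb5+/- against Gnb5+/+ moved to 6 in atria and 5 in ventricles without Gnb5+/+ mouse 15, and to 1 in ventricles without Gnb5+/- mouse 6 or 11. Gnb5-/- against Gnb5+/- ventricles moved to 7 (without Gnb5-/- mouse 1), 8, 21 or 23 (without Gnb5+/- mouse 13, 4 or 2) or 20 (without Gnb5+/+ mouse 15). The filtered interactions gave 0, and 2 for the Gnb5-/- genotype without the mouse as a block. In the ventricles Adipoq, Plin1, Lep and Cidec had at most 57 counts a library, which limits the differences that can be detected there.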
